A study of Rattus norvegicus with 70 samples.

Results

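The 38 genes described here encode the transcription factor NRF2, its inhibitor KEAP1, and the enzymes and transporters of glutathione, thioredoxin and antioxidant defence. They were chosen by name, from what the genes are known to do, with earlier results of these data already known. By role they are the factor and its inhibitor (Nfe2l2, Keap1), cystine uptake with glutathione synthesis and reduction (Slc7a11, Gclc, Gclm, Gss, Gsr), and further genes known as NRF2 targets (Nqo1, Hmox1, Osgin1, Pgd, Fth1, Abcc1). The thioredoxin system is Txn1, Txnrd1, Srxn1 and Prdx1 to Prdx6, the glutathione peroxidases are Gpx1, Gpx3 and Gpx4, and superoxide dismutases and catalase are Sod1, Sod2, Sod3 and Cat. The transferases are Gsta4, Gstm1, Gstm2, Gstp1, Gstt1 and Gstt2, with the microsomal Mgst1, Mgst2 and Mgst3. All 38 were found, by matching NCBI gene numbers to rat symbols, among the 15319 genes of each of the 6 count tables. The tables hold RNA-seq read counts from 3 fat depots of 24 Sprague-Dawley rats, 1 table for each sex and depot: brown fat (BAT), fat from under the skin (SAT) and visceral fat (VAT). The series was made to find expression changes in fat depots of adolescent rats after inhalation of PCB 52, a tetrachlorinated biphenyl. The animals, males and females 28 days old on arrival, settled in for 8 days, learned to sit in the inhalation apparatus and were then randomised to sham or PCB 52, males at 39 and females at 42 days of age. For 4 h a day over 28 days, PCB 52 rats breathed filtered air that had flowed at 12 L/min over beads bearing PCB 52. What the sham rats breathed is not given in the sources used here. Neither genotype nor transgene separates the groups, all rats are of 1 outbred stock, and all had the same diet. The titles' numbers run from 1 to 12 for sham and from 13 to 24 for PCB 52, with even numbers female and odd numbers male, and the same number in different depots was read as the same rat, which the labels do not state. Each of the 12 groups of sex, depot and treatment has 6 libraries, except female SAT sham and male VAT PCB 52 with 5 each, which makes 70.

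NRF2, the product of Nfe2l2, is a transcription factor that KEAP1 holds in the cytoplasm and passes to degradation. Oxidants and electrophiles modify cysteines of KEAP1, and the NRF2 that is then spared enters the nucleus and binds antioxidant response elements near genes for glutathione synthesis, NQO1, heme oxygenase, the thioredoxin system and glutathione transferases. Glutathione is the main soluble thiol of cells: glutathione peroxidases use it to reduce peroxides, and glutathione transferases couple it to electrophiles. In fat the mitochondria of brown adipocytes are rich in superoxide dismutase and peroxiredoxins.

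The core of the antioxidant response element, TGACNNNGC, was searched on both strands in the 250 bases before the start of each gene in RefSeq's promoter table of the GRCr8 assembly. The core was present in 5 of the 30 members with an entry (16.7%), against 3027 of all 27457 genes with an entry (11%). Counted by window, it was in 5 of the members' 33 windows and in 3373 of all 33469 (10.1%). The 5 members are Gclm, Gstp1, Prdx1, Sod2 and Txnrd1. 4 of the windows are shown: Sod2, Gclm and Gstp1 because their levels differed between depots or sexes, and Prdx1 because it holds the core and was called in no depot contrast of sham rats. Sequences run 5′ to 3′ on the gene's strand and end at the last base before the start. Capitals mark the core, which in Sod2, Gclm and Prdx1 reads in the opposite direction, as GCNNNGTCA. A match to these letters is a description of the sequence and does not show binding.
Sod2, chr1:50050169-50050418, minus strand: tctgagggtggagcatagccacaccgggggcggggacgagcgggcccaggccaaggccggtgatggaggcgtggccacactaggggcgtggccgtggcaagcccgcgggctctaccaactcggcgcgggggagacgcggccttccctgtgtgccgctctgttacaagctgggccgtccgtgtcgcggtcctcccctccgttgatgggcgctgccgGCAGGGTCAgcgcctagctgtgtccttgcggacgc
Gclm, chr2:213031885-213032134, plus strand: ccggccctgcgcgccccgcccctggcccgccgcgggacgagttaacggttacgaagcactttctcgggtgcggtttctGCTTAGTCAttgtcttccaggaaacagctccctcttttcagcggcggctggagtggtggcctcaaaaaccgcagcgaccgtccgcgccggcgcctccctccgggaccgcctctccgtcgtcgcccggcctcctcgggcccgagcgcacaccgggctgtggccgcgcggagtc
Gstp1, chr1:210769706-210769955, minus strand: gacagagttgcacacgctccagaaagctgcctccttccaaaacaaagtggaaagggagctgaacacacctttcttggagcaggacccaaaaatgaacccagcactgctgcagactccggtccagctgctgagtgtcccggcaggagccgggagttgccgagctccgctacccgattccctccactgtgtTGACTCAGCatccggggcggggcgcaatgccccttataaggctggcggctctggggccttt
Prdx1, chr5:135383656-135383905, plus strand: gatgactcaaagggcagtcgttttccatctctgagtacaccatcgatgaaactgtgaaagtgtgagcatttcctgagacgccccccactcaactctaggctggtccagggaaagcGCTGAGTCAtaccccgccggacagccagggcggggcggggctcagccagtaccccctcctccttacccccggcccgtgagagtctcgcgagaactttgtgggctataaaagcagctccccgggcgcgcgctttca
The core begins 35 bases before the start in Sod2, 61 in Gstp1, 135 in Prdx1 and 172 in Gclm. The 8 members without an entry in the table (Gsr, Hmox1, Fth1, Prdx6, Sod3, Gstt1, Gstt2 and Mgst2) were not searched.

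Libraries held 4604116 to 9707132 counts. Levels are given as CPM, the counts per 1000000 counts of a library after scaling for composition, and 3 counts, the least taken as detection, correspond to 0.294 to 0.714 CPM. Ucp1, the uncoupling protein that defines brown adipocytes, was 2894 to 10966 CPM in 23 of the 24 BAT libraries and 115 CPM in female PCB 52 rat 24. It reached 360.4 CPM in the VAT of female sham rat 4 and 218 CPM in that of female sham rat 8, and was below 13 CPM in all other SAT and VAT libraries. Mammary gland and epithelium markers in SAT summed to 5149 to 25634 CPM in female sham, 10.2 to 271495 CPM in male sham and 15 to 302995 CPM in male PCB 52 rats. The 6 adipocyte markers summed there to 2310.3 to 21385 CPM in female sham rats (median 3350), with rat 8 highest. In male sham rats they summed to 1658 to 16876 CPM (median 14327). In VAT the adipocyte markers summed to 20939.6 to 31330.3 CPM in female and 13909.5 to 29599 CPM in male sham rats. 2 libraries had 20 of the 38 members more than 2-fold from their group's median, namely the SAT of female sham rat 8 and of male PCB 52 rat 19. As alternatives, comparisons were repeated without 8 libraries that stood apart in earlier results of these data (BAT of female PCB 52 rat 24, SAT of female sham rat 8 and male PCB 52 rat 19, VAT of female sham rats 4 and 8, male sham rat 11 and male PCB 52 rats 13 and 23), without each library in turn, and, between depots, with a term for each rat number as a block. In bulk tissue, fewer cells of a type and less RNA per cell cannot be told apart, and this holds for every result that follows. The VAT library of male PCB 52 rat 13 had no reads on 291 of 298 expressed genes of the X chromosome, where Prdx4 lies, and on 265 of 393 of chromosome 9. The SAT library of female sham rat 8 had none on 36 of 322 expressed genes of X and 33 of 417 of chromosome 9. Its scaling factor for composition was 0.616, against 1.16 to 1.22 in the other SAT libraries of female sham rats.

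No member passed the test between PCB 52 and sham rats in any depot of either sex. The test was edgeR's quasi-likelihood test with a Benjamini-Hochberg adjusted p under 0.05 over all genes tested. In BAT 37 members were tested in each sex, in SAT 38 and in VAT 37, since Slc7a11, which encodes the cystine carrier, fell under the expression filter in BAT and VAT. Across all genes the share called was 0% of 10686 in female BAT, 0% of 10687 in male BAT, 0% of 11824 in female SAT, 0% of 11459 in male SAT, 0% of 11143 in female VAT and 0% of 11357 in male VAT. At an unadjusted p under 0.05, edgeR gave 1, 1, 8, 2, 2 and 2 members in the same order. For this and all later counts at an unadjusted p, the share of all genes is not reported here, so they are not read against it. In female SAT the 5 members of smallest p were Txn1, Fth1, Sod1, Prdx5 and Gstp1. All of them were more than 2-fold above their group's median in sham rat 8. DESeq2 called 0 members in each of the 6, and had 1, 1, 3, 0, 3 and 3 members at an unadjusted p under 0.05. Both sexes together also gave 0 of 37 members in BAT, where 0.00906% of genes were called, 0 of 38 in SAT (0%) and 0 of 37 in VAT (0%), with 3, 2 and 1 members at an unadjusted p under 0.05. The test of a difference between the sexes in the PCB 52 effect called 0 members in BAT (0%), SAT (0%) and VAT (0%), with 0, 7 and 5 members at an unadjusted p under 0.05.

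**Figure D1:**
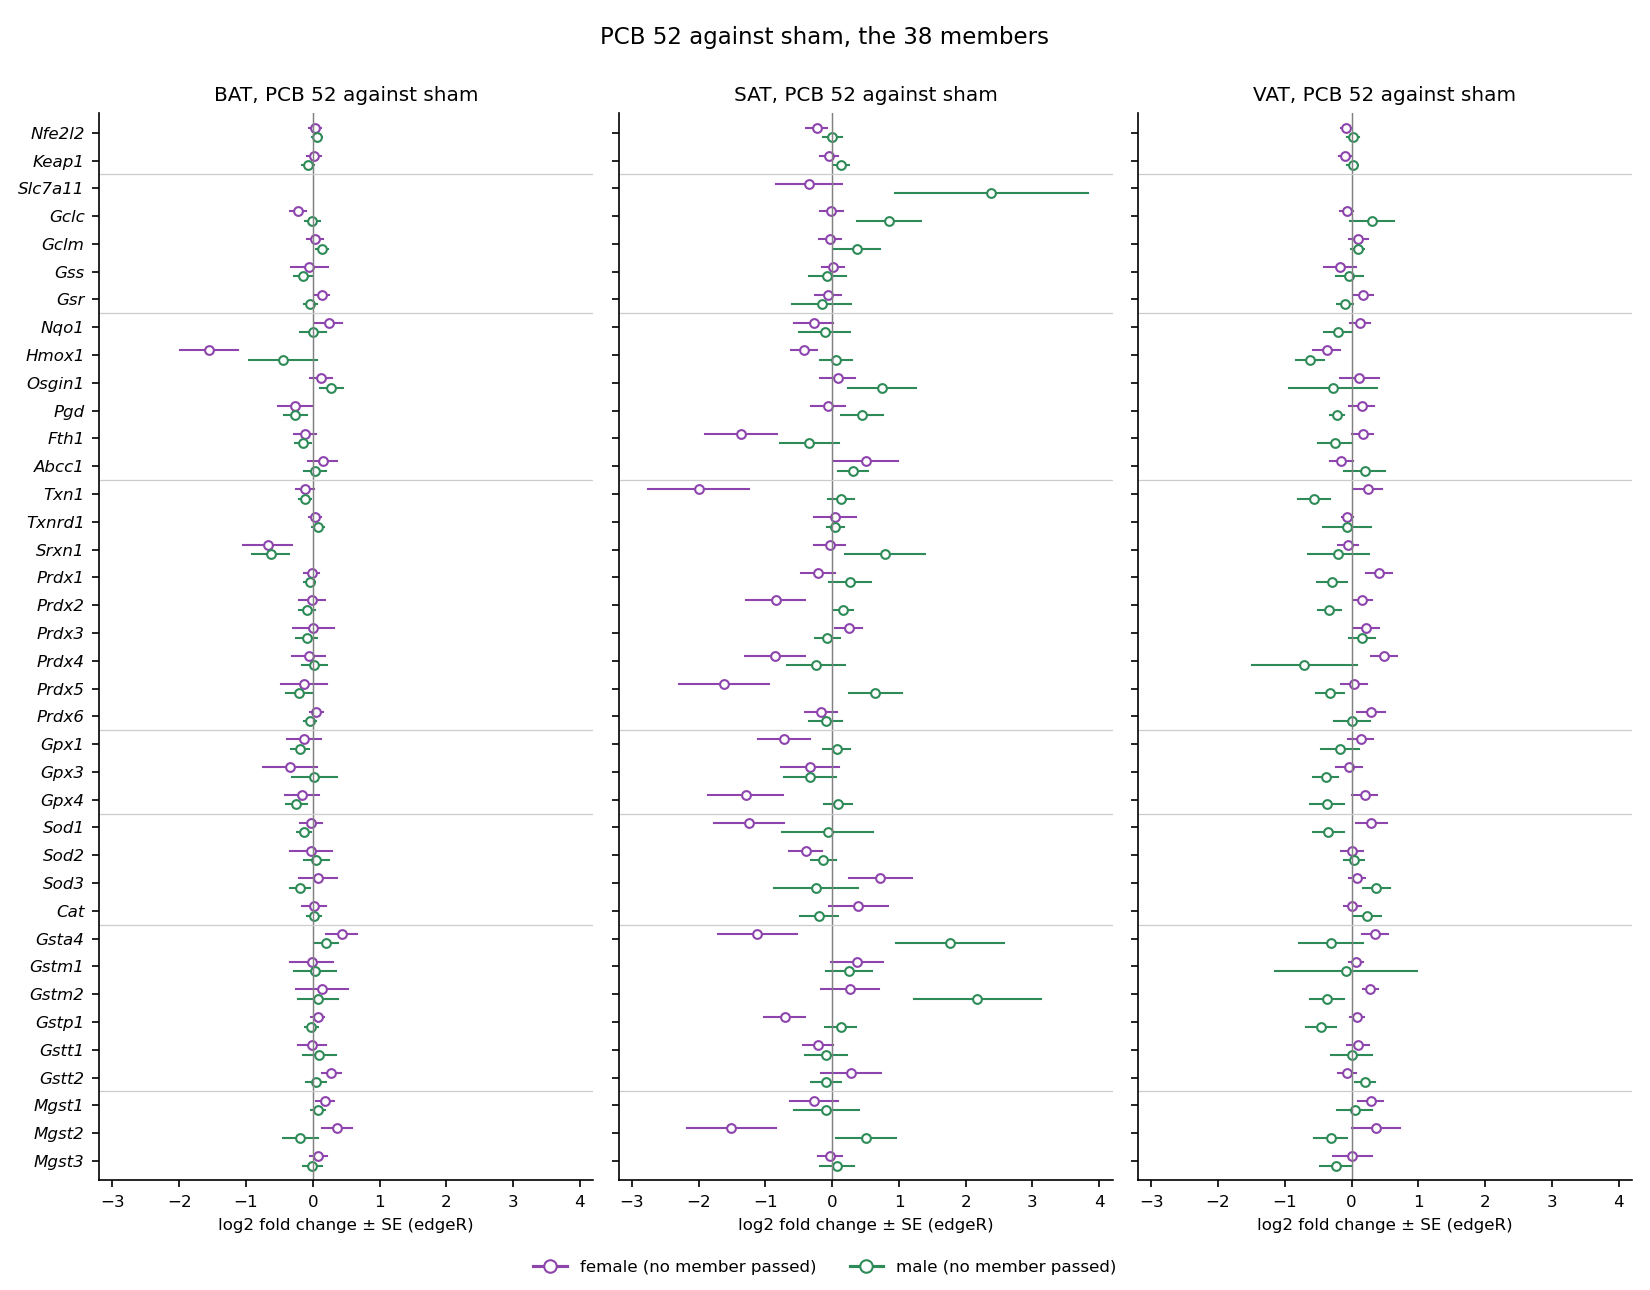
Log2 fold change of PCB 52 against sham for the 38 members (horizontal axis, points with bars of 1 SE from edgeR) in BAT, SAT and VAT, females in purple and males in green. All points are open because no member passed the test, and the widest bars in male SAT are those of Slc7a11, Gstm2 and Gsta4.

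The median log2 fold change of the members tested was 0.01 in female BAT and -0.03 in male BAT, beside -0.01 and 0.02 over all genes tested. In SAT it was -0.21 in females and 0.07 in males, beside 0.01 and 0.03 over all genes. In VAT it was 0.10 in females and -0.20 in males, beside 0.01 and -0.03 over all genes. The medians of the sexes lay on opposite sides of 0 in every depot, in BAT about as near to 0 as those of all genes. The test of a difference between the sexes in the PCB 52 effect called no member in any depot. In SAT, 20 members of female sham rat 8 and 20 of male PCB 52 rat 19 were more than 2-fold from their group's median. In VAT, 7 members of female PCB 52 rat 20 and 11 of male sham rat 7 were more than 2-fold from their group's median.

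Hmox1, heme oxygenase 1, which opens the heme ring and is among the best known NRF2 targets, had the smallest unadjusted p of the members in female BAT, in male VAT and in VAT of both sexes. In female BAT the sham rats 2, 4, 6, 8, 10 and 12 had 240.1, 109, 98.8, 219, 79.3 and 584 CPM. The PCB 52 rats 14, 16, 18, 20, 22 and 24 had 97.6, 73.2, 73.8, 92, 53.8 and 69.6 CPM. Sham rat 12 stood far above the others, the lowest sham rat lay among the PCB 52 rats, and 5 of 6 sham rats were above all 6 PCB 52 rats. The log2 fold change was -1.55 (SE 0.436), with an unadjusted p of 0.00357 and an adjusted p of 0.999. In male BAT the sham range of 74.8 to 492 CPM and the PCB 52 range of 59.3 to 354 CPM overlapped almost wholly. The log2 fold change of both sexes together in BAT was -0.997 (SE 0.363, adjusted p = 0.295).

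In male VAT, Hmox1 was 21.2 to 48.3 CPM (median 31) in sham rats and 26.6, 18.6, 25.6, 17.3 and 18.3 CPM in PCB 52 rats. The groups overlapped, with 5 of 6 sham rats above all 5 PCB 52 rats. The log2 fold change was -0.63 (SE 0.208, adjusted p = 0.747) in males and -0.49 (SE 0.151, adjusted p = 0.517) with both sexes. Summed markers of macrophages, which express Hmox1, were 575 to 1209 CPM in male VAT of sham rats and 1070.2 to 1382 CPM in that of PCB 52 rats, and 622 to 1745 CPM and 564 to 2717 CPM in female BAT. Their part in the Hmox1 values was not tested.

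Srxn1, sulfiredoxin, restores over-oxidised peroxiredoxins. In male BAT it was 35.2 to 109.7 CPM (median 57.7) in sham and 20.6 to 52.3 CPM (median 44.7) in PCB 52 rats, and in female BAT 43.9 to 128 CPM (median 77.6) and 13.8 to 76.4 CPM (median 56.5). The groups overlapped in both sexes, and the lowest value of each sex belonged to the PCB 52 rat with the lowest Ucp1 of its group, rat 24 in females and rat 23 in males. The log2 fold change was -0.63 (SE 0.275, adjusted p = 0.486) in males and -0.65 (SE 0.233, adjusted p = 0.288) with both sexes.

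In SAT the differences of Txn1, Prdx5 and Gstm2 between treatments each changed most with 1 library. Txn1, thioredoxin, the small protein that reduces disulfides, was 118, 58.7, 1156, 73 and 78.4 CPM in the female sham rats 2, 6, 8, 10 and 12 in that order, and 70.3 to 83.4 CPM (median 75.7) in the female PCB 52 rats. Sham rats 2 and 8 were above the PCB 52 range, rat 8 far above it, and rat 6 was below it. Its log2 fold change of -2.002 (SE 0.754, adjusted p = 0.768) came to -0.09 without rat 8. Prdx5, a peroxiredoxin of mitochondria, peroxisomes and cytosol, went from -1.62 to 0.05 in the same way. Gstm2, a mu class glutathione transferase, was 64.8 to 203 CPM (median 179) in male sham rats. In the male PCB 52 rats 13, 15, 17, 19, 21 and 23 it was 133, 210.3, 74.8, 3506, 196 and 99.8 CPM. Only rat 19 lay far above the sham range, and the log2 fold change of 2.18 (SE 0.948, adjusted p = 1) was -0.07 without it. Rat 19 also had the highest male SAT level of Srxn1, at 99.3 CPM, and of Slc7a11, at 88.6 CPM, and its Adipoq level of 326 CPM was the lowest of all SAT libraries.

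Depots differed for many members in sham rats. Between BAT and SAT of females, 13 of 38 members were higher in BAT and 7 lower (22.4% and 31.1% of all 12228 genes), and of males 13 and 3 (21.4% and 26.3%). Between BAT and VAT, 9 were higher in BAT and 4 lower in females (16.8% and 14%), and 13 and 8 in males (19.3% and 22.3%). Between SAT and VAT, 5 were higher in SAT and 12 lower in females (27.8% and 19.7%), and 2 and 7 in males (10.2% and 8.3%). The male total of 9 was 17 without the libraries that stood apart, and 6 without the SAT of rat 1 or the VAT of rat 3 or rat 11. In all 4 contrasts of BAT the share of the members that was higher in BAT exceeded that of all genes. The share that was lower was below that of all genes against SAT. Against VAT it was near that of all genes, with 4 of 38 in females beside 14% and 8 of 38 in males beside 22.3%. In both contrasts of SAT with VAT the share higher in SAT was below, and the share lower in SAT above, that of all genes. No test of the list was made.

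**Figure D2:**
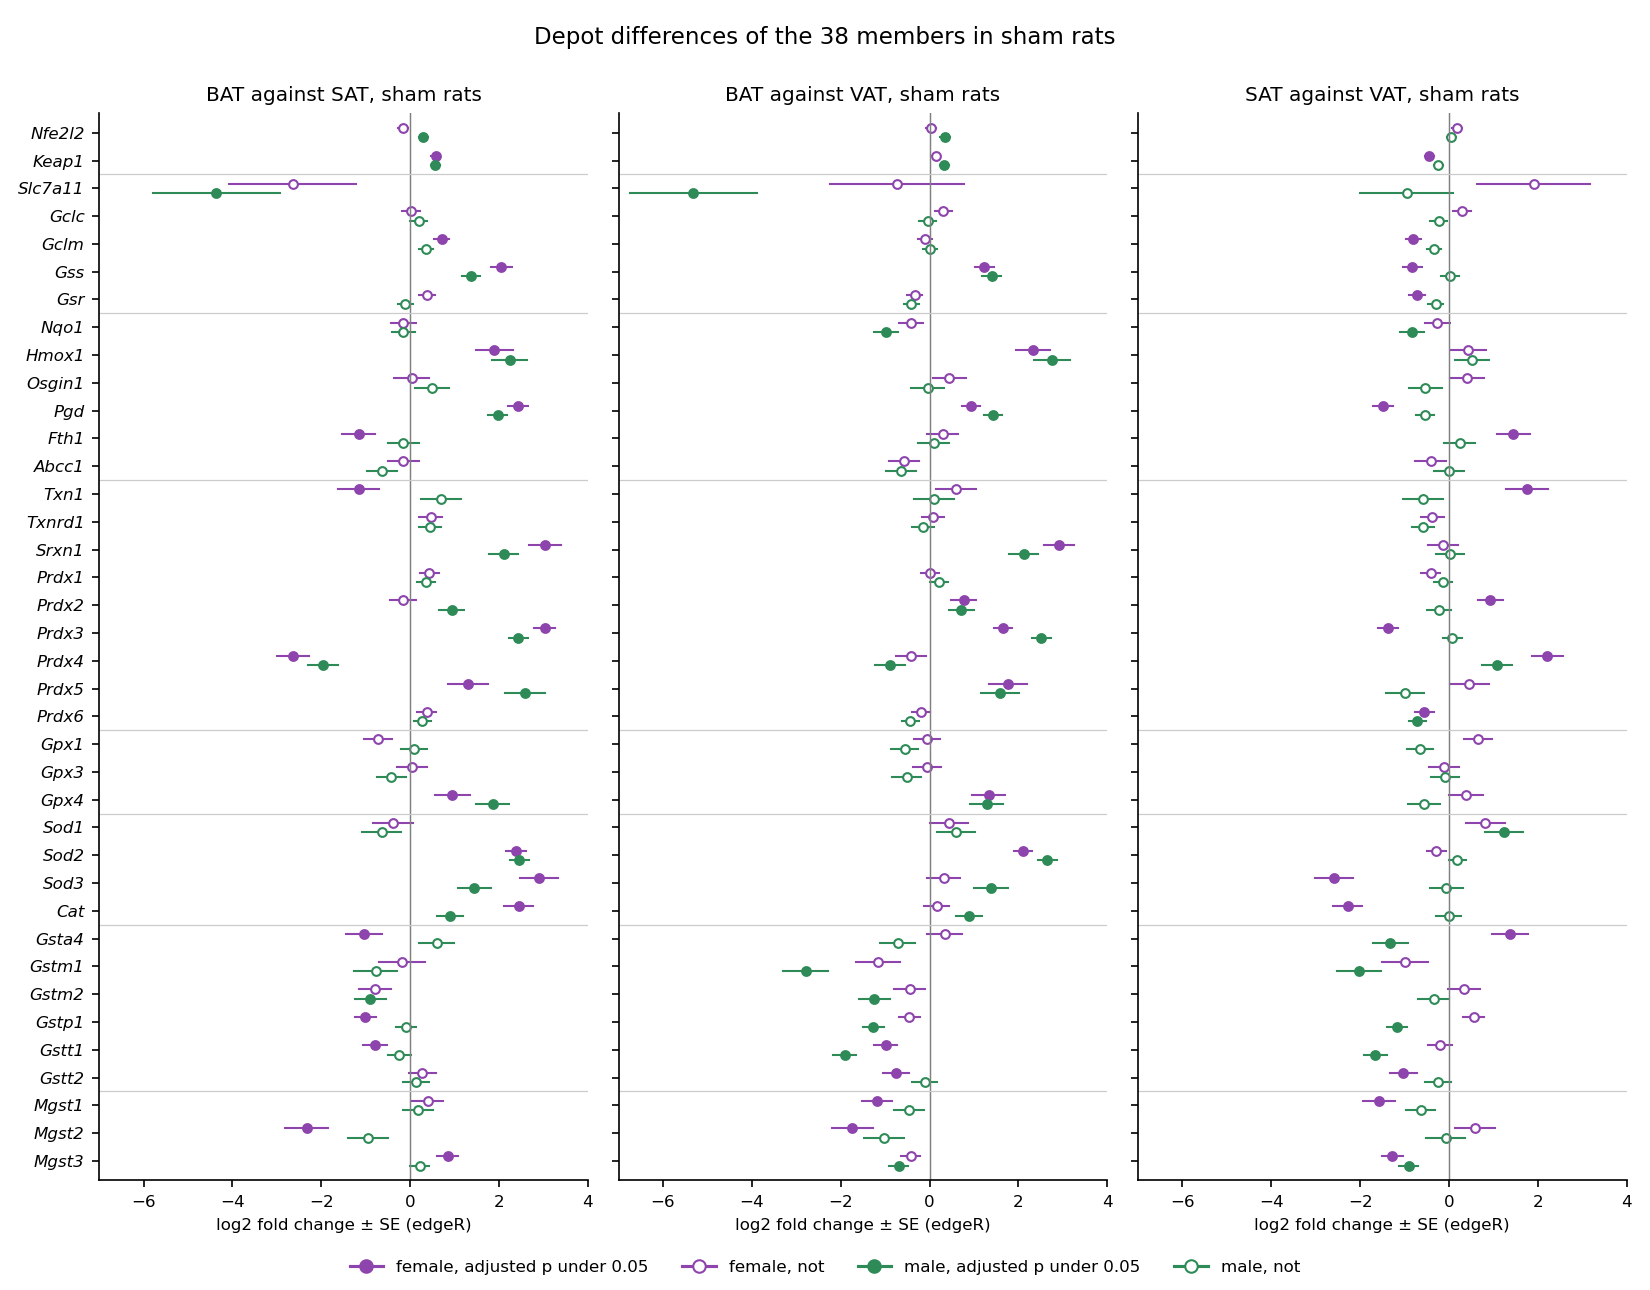
Log2 fold changes between depots in sham rats for the 38 members in the order of their roles (horizontal axis, points with bars of 1 SE from edgeR), females in purple and males in green, filled where the adjusted p was under 0.05. Gss, Hmox1, Pgd, Srxn1, Prdx3, Prdx5, Gpx4 and Sod2 are filled to the right of 0 in the panels of BAT against SAT and of BAT against VAT in both sexes.

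8 members were higher in BAT than in both other depots in both sexes of sham rats: Sod2, Prdx3, Prdx5, Gpx4, Gss, Pgd, Hmox1 and Srxn1. Of all 12228 genes, 1175 (9.61%) met the same 4 calls. 28 of these 32 calls, those among the 8 largest changes of their contrast, were recomputed under every alternative tried, including leaving out each library in turn. All 28 kept their direction and stayed past the threshold. The other 4, of smaller change, were not recomputed. They are Prdx5 and Gpx4 in BAT against SAT of females, Gss in BAT against SAT of males and Gpx4 in BAT against VAT of males. In PCB 52 rats the same 4 contrasts called 8 members as well, of which 6 are shared (Sod2, Prdx3, Prdx5, Gpx4, Gss and Hmox1) and 2 are Keap1 and Prdx2, beside 11.4% of all genes. Sod2, the manganese superoxide dismutase of the mitochondrial matrix, was 579 to 1260.0 CPM (median 1016) in BAT of female sham rats, 159 to 305 CPM (median 225) in VAT and 179.6, 139, 262, 205 and 127 CPM in SAT of rats 2, 6, 8, 10 and 12. In male sham rats it was 737 to 1102 CPM (median 963) in BAT, 153 to 213 CPM (median 166) in SAT and 112 to 213 CPM (median 142) in VAT. Every BAT library of sham rats was above every SAT and VAT library. The log2 fold changes against SAT were 2.39 (SE 0.223, adjusted p = 2.44e-10) in females and 2.46 (SE 0.209, adjusted p = 5.06e-11) in males, and against VAT 2.11 and 2.65.

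Prdx3, the peroxiredoxin confined to mitochondria, was 393 to 783 CPM (median 675) in BAT of female sham rats, 132 to 279.8 CPM (median 192) in VAT and 112, 67, 43.9, 72.7 and 82.9 CPM in SAT. In male sham rats it was 450.3 to 650.4 CPM (median 580.3) in BAT, 84.6 to 126 CPM (median 102) in SAT and 65.1 to 139 CPM (median 90.1) in VAT. BAT did not overlap the other depots in sham rats, and the log2 fold changes were 3.03 (SE 0.241, adjusted p = 9.19e-12) against SAT in females, 2.44 in males, 1.65 against VAT in females and 2.52 in males. Prdx5 had log2 fold changes of 1.30 and 2.58 against SAT and 1.76 and 1.59 against VAT in females and males. Its level was 578 CPM in the median of female BAT and 569.7 CPM in that of male BAT. In the SAT of sham rat 8 it was 803 CPM, above every BAT library of sham rats, and in the other 10 SAT libraries of sham rats at most 122 CPM. Gpx4, the glutathione peroxidase that reduces lipid hydroperoxides in membranes, had log2 fold changes of 0.95 and 1.86 against SAT and 1.34 and 1.29 against VAT. BAT of sham rats ranged from 612 to 1116 CPM in females, while sham rat 8 had 1476 CPM in SAT and male sham rat 7 had 739 CPM in VAT.

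Gss, glutathione synthetase, which adds glycine in the last step of glutathione synthesis, was 103 to 196 CPM (median 167) in BAT of female sham rats and 131 to 219 CPM (median 164) in that of males. In SAT it was 42.2, 33.7, 36.7, 50.3 and 29.8 CPM in female sham rats and 46.7 to 87 CPM (median 60.5) in male sham rats, with no overlap with BAT. VAT had 41.2 to 129 CPM (median 57.6) in female and 52.8 to 71.3 CPM (median 67.1) in male sham rats. The female VAT library above the lowest BAT library was that of rat 4, which also had the highest VAT level of Ucp1. The log2 fold changes were 2.06 (SE 0.230, adjusted p = 9.02e-09) and 1.37 against SAT, and 1.23 and 1.40 against VAT. Pgd, which makes NADPH in the pentose phosphate pathway, had 2.42 and 1.97 against SAT, and 0.94 and 1.44 against VAT. In sham rats, Pgd in BAT overlapped VAT in females (579 to 1211 CPM against 348 to 669.5 CPM) and did not in males (549 to 817 CPM against 235 to 293 CPM).

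Hmox1 was 79.3 to 584 CPM (median 164) in BAT of female and 74.8 to 492 CPM (median 209.5) in BAT of male sham rats. In sham rats its highest value was 71.1 CPM in SAT and 61 CPM in VAT, so BAT did not overlap either. The log2 fold changes were 1.89 (SE 0.410, adjusted p = 0.000248) and 2.24 against SAT, and 2.33 and 2.76 against VAT in females and males. In PCB 52 rats they were 0.80 and 1.74 against SAT, and 1.22 and 2.98 against VAT. Srxn1 had 3.04 (SE 0.365, adjusted p = 3.50e-08) and 2.10 against SAT, and 2.91 and 2.12 against VAT. Male sham rat 11 had 36.4 CPM of Srxn1 in VAT, just above the lowest BAT value of 35.2 CPM in sham rats.

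**Figure D3:**
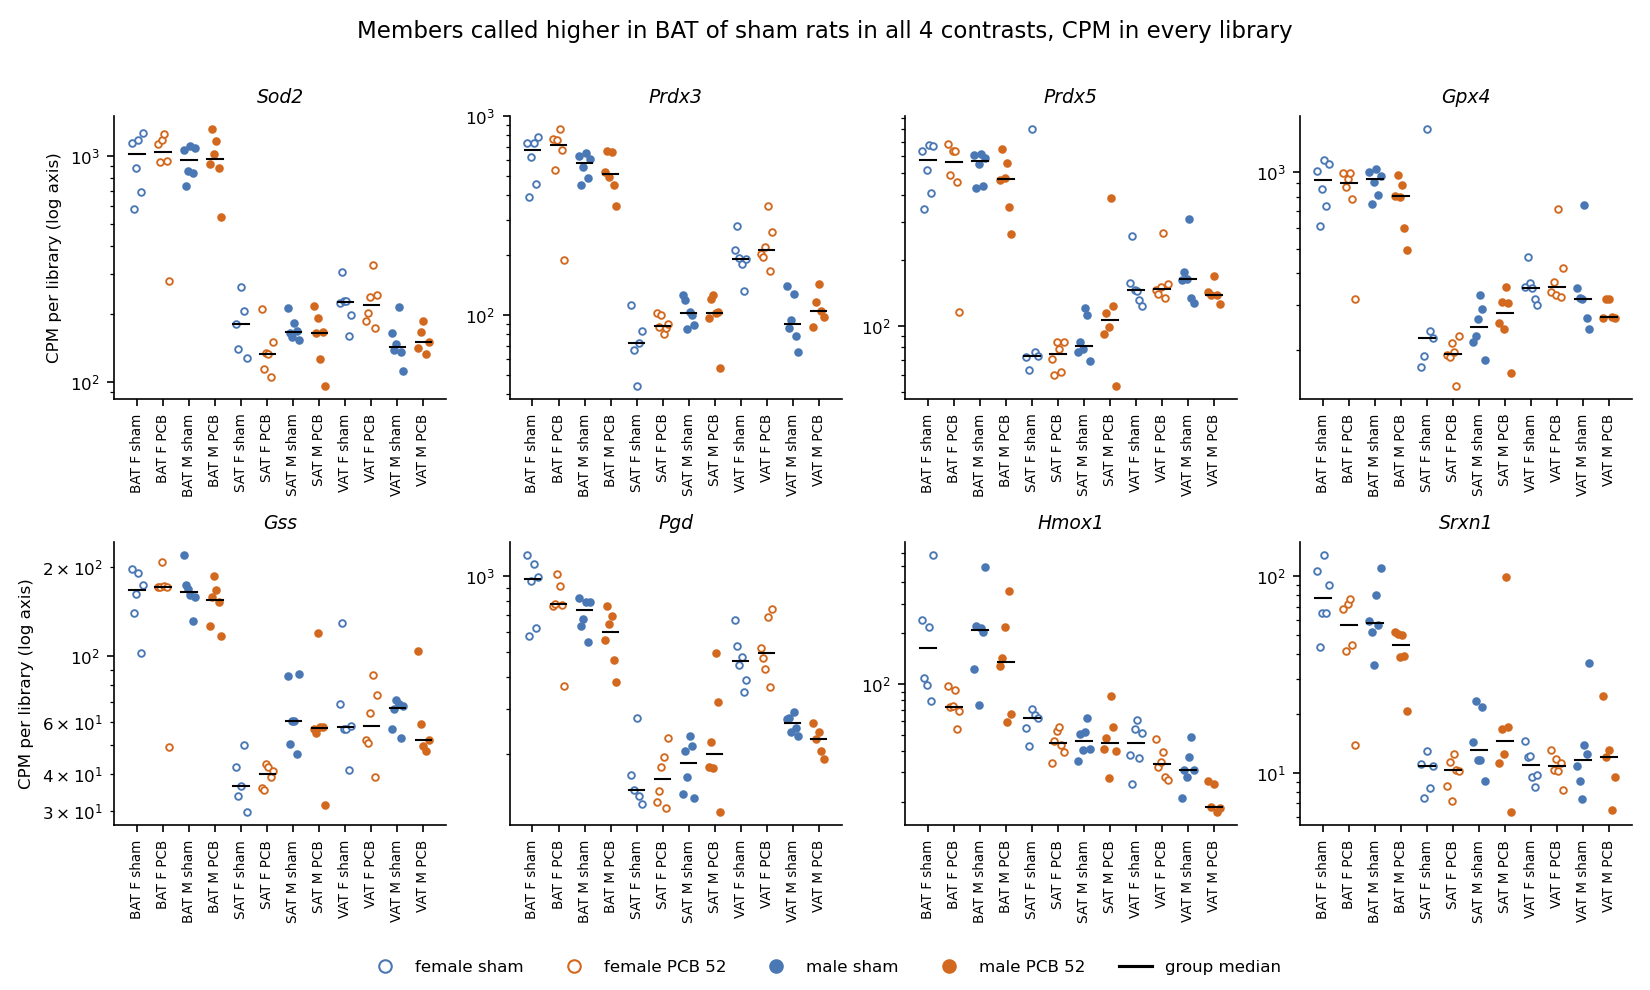
CPM in every library (vertical log axis) of the 8 members called higher in BAT of sham rats in all 4 contrasts with SAT and VAT, by depot, sex (F female, M male) and treatment, with a bar at each group's median. The point far below the other female BAT libraries of PCB 52 rats in Sod2, Prdx3, Prdx5, Gpx4 and Gss is rat 24, and the high SAT point in Prdx5 and Gpx4 is female sham rat 8.

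The BAT library with the lowest Ucp1, that of female PCB 52 rat 24, also had the lowest level of these members among the 24 BAT libraries, Hmox1 apart. Sod2 was 279.9 CPM there, Prdx3 189.8, Prdx5 116, Gpx4 317, Gss 49.6, Pgd 370.4 and Srxn1 13.8 CPM. Of the 37 members with a group median of at least 1 CPM, 9 were more than 2-fold below and 5 more than 2-fold above the median of their group in this library. Its skeletal muscle marker Acta1 was 15783 CPM, against 72.2 to 6725 CPM in the other 5 of its group. The part of brown adipocyte and muscle content in these values was not tested.

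Sod3, the extracellular superoxide dismutase, and Cat, the peroxisomal catalase, were higher in BAT than in SAT in both sexes. In females they were also lower in SAT than in VAT. Cat was 1079.6 to 1366 CPM (median 1229) in BAT of female sham rats, 201, 309, 28.5, 276 and 316 CPM in SAT and 848 to 1422 CPM (median 1081) in VAT. SAT lay wholly below the other depots, with rat 8 lowest, and the log2 fold changes were 2.44 for BAT against SAT (SE 0.321, adjusted p = 1.80e-07) and -2.28 for SAT against VAT. In male sham rats Cat was 1124 to 1303 CPM (median 1248) in BAT, 479.5 to 802 CPM (median 680.4) in SAT and 407 to 987 CPM (median 652) in VAT, and SAT and VAT overlapped. The male log2 fold changes were 0.89 and 0.89 for BAT against SAT and VAT, and -0.001 for SAT against VAT, which did not pass. Sod3 was 195, 227, 26.6, 272 and 286 CPM in SAT of female sham rats and 953 to 1425 CPM (median 1236) in VAT, with a log2 fold change of -2.59 (SE 0.423, adjusted p = 1.10e-05). In male sham rats SAT was 149 to 1013 CPM (median 682) and VAT 430.0 to 969 CPM (median 536), with -0.06, which did not pass. The 2 male sham libraries lowest for Sod3 in SAT, of rats 1 and 11 at 167 and 149 CPM, had Adipoq at 851 and 414 CPM and Krt8 at 696 and 378 CPM. The other 4 had Adipoq at 3668 to 5084 CPM and Krt8 at 8.83 to 220.4 CPM. In female sham rats the summed adipocyte markers had medians of 3350 CPM in SAT and 23682 CPM in VAT. The part of adipocyte and gland content was not tested.

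Lower in BAT were Prdx4 and several transferases. Prdx4, the peroxiredoxin of the endoplasmic reticulum, was lower in BAT than in SAT in females (log2 fold change -2.63, SE 0.364, adjusted p = 4.31e-07) and males (log2 fold change -1.96, SE 0.347, adjusted p = 2.87e-05) and higher in SAT than in VAT in both (2.22 and 1.08). Without female sham rat 8, whose SAT had 374 CPM, the female values were -1.88 and 1.52 and still passed. The male difference between SAT and VAT was 0.86 with an adjusted p of 0.092 without the SAT of rat 1. Leaving out the VAT of rat 1 or of rat 3 gave 0.98 and 0.998, with adjusted p of 0.0509 and 0.0502. Gstt1, a theta class transferase, was lower in BAT than in VAT, with -0.99 (SE 0.260, adjusted p = 0.00374) in females and -1.91 (SE 0.263, adjusted p = 7.16e-07) in males. In male sham rats Slc7a11 (-5.32), Gstm1 (-2.79), Gstp1 (-1.27) and Gstm2 (-1.24) were also lower in BAT than in VAT. Without the VAT of rat 11, Slc7a11 was at -0.71 and Gstm1 at -1.46, and with the rat number as a block the call of Slc7a11 was lost (-2.52, adjusted p = 0.113). Mgst1, the microsomal transferase that also reduces lipid peroxides, was 563 to 777 CPM (median 679) in BAT of female sham rats and 1199 to 1834 CPM (median 1576) in VAT, with no overlap and a log2 fold change of -1.19 (SE 0.334, adjusted p = 0.00665). In male sham rats BAT was 619 to 862 CPM (median 728) and VAT 505 to 1593 CPM (median 995), and -0.46 did not pass. Mgst2 and Gstt2 were also lower in BAT than in VAT in females, with -1.74 and -0.76. In SAT of female sham rats Mgst1 was 309, 367, 1118, 291 and 464 CPM, below VAT with -1.58.

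Some depot calls of females rested on the SAT of sham rat 8. Txn1 was called lower in BAT than in SAT with -1.16 (adjusted p = 0.0363) and higher in SAT than in VAT with 1.75 (adjusted p = 0.0029). Without rat 8 these were 0.76 (adjusted p = 0.00232) and -0.11 (adjusted p = 0.684), so the first call reversed and the second was lost. With the rat number as a block, the values of Txn1 were -0.17 and 0.76 (adjusted p = 0.788 and 0.205). Fth1, the heavy chain of the iron store ferritin, and Gsta4, which couples glutathione to the lipid aldehyde hydroxynonenal, had -1.16 and -1.04 for BAT against SAT. Without rat 8 they had -0.08 and 0.04, with adjusted p of 0.793 and 0.917. The block also ended both calls, at -0.73 and -0.58 (adjusted p = 0.0866 and 0.207). In the SAT of female PCB 52 rats the highest values were 83.4 CPM of Txn1, 3212 CPM of Fth1 and 54.8 CPM of Gsta4, against 1156, 20199 and 187 CPM in rat 8. The log2 fold changes for BAT against SAT there were 0.76, 0.13 and 0.54, of which that of Txn1 passed (adjusted p = 0.00151).

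**Figure D4:**
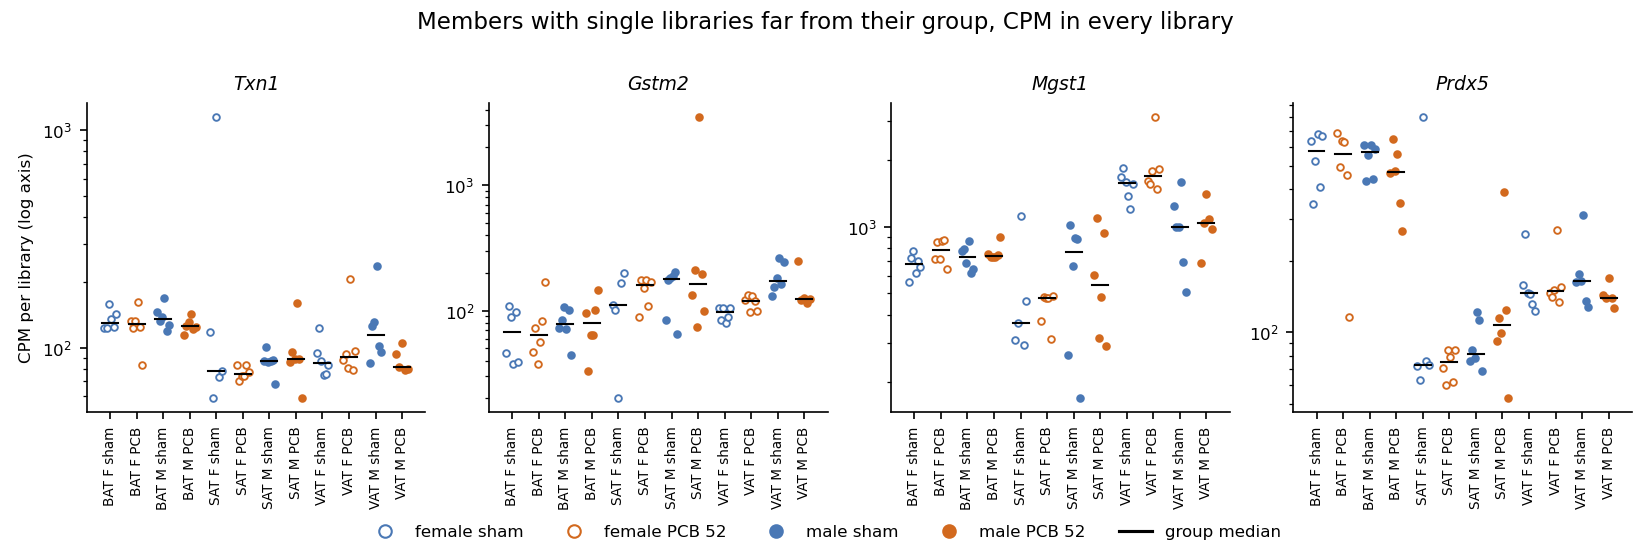
CPM in every library (vertical log axis) of Txn1, Gstm2, Mgst1 and Prdx5 by depot, sex (F female, M male) and treatment, with a bar at each group's median. Female sham rat 8 stands above the other SAT libraries in Txn1 and Prdx5 and below them in Gstm2, and male PCB 52 rat 19 reaches 3506 CPM of Gstm2 in SAT.

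The depot contrasts were repeated in the PCB 52 rats, which are other animals. Percentages in brackets are the shares of all genes called in PCB 52 rats. The share of all genes called again is not reported here, so the counts called again are not compared with it. Of the 20 members called between BAT and SAT in female sham rats, 14 were called in the same direction in female PCB 52 rats, where 20 were higher and 1 lower (27.4% and 28.9% of all 12272 genes). 1 member, Txn1, was called in the opposite direction. In males 15 of 16 were called again, beside 13 higher and 5 lower (19.4% and 27.4%). Between BAT and VAT, 11 of 13 in females and 17 of 21 in males were called again, with 9 higher and 4 lower (21.3% and 14.6%) and 13 higher and 7 lower (21.9% and 17.3%). Between SAT and VAT, 11 of 17 and 7 of 9 were called again, with 0 higher and 17 lower in females (26.6% and 21%) and 4 higher and 8 lower in males (16.2% and 8.79%). Among the 7 in males is Prdx4, which was 0 CPM in the VAT of male PCB 52 rat 13, the library without reads on most X genes. With the rat number as a block, Prdx4 in male PCB 52 rats was 1.53 (adjusted p = 0.0925). Of the sensor and the factor themselves, in sham rats Keap1 was higher in BAT than in SAT by 0.58 in females and 0.57 in males, and Nfe2l2 by 0.30 in males, with -0.16 in females.

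Males started exposure at 39 and females at 42 days of age, and each sex has its own count tables. Sex, age and table therefore cannot be told apart in any comparison of the sexes. No member passed the test between the sexes in BAT. Of 38 members 0 were called between males and females in BAT of sham rats (0.0572% of all genes) and 0 in BAT of PCB 52 rats (0.0326%), with 0 and 1 members at an unadjusted p under 0.05 in edgeR and none called by DESeq2. In SAT of sham rats 6 members were higher in males and 8 lower (9.65% and 15.1%), and in SAT of PCB 52 rats 7 were higher and 0 lower (9.07% and 5.12%). Leaving out female sham rat 8 reduced the 14 of sham rats to 7. Cat, Mgst3 and Gclm were higher in male SAT in both treatments. Cat was 224 to 345 CPM (median 323) in SAT of female PCB 52 rats and 226 to 784 CPM (median 659) in that of males, and the log2 fold changes were 1.55 (SE 0.309, adjusted p = 0.000716) in sham and 0.95 (SE 0.211, adjusted p = 0.00341) in PCB 52 rats. In sham rats no male SAT library overlapped a female one for Cat, and in PCB 52 rats only male rat 23 did. Gclm, the regulatory subunit of the enzyme that starts glutathione synthesis, had 0.53 and 0.92, and Mgst3, a microsomal transferase and peroxidase, 0.74 and 0.83. Sod3 was higher in male SAT of sham rats (log2 fold change 1.51, SE 0.404, adjusted p = 0.00745) and had 0.54 in PCB 52 rats, which did not pass. The summed adipocyte markers in SAT had medians of 3350 CPM in female and 14327 CPM in male sham rats. In PCB 52 rats the medians were 4322 CPM in females and 6087 CPM in males. The part of adipocyte content in these sex differences was not tested.

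The 8 members called lower in male than in female SAT of sham rats were Txn1, Gsta4, Prdx5, Mgst2 (a microsomal transferase), Fth1, Gpx1, Prdx2 (a cytosolic peroxiredoxin) and Nfe2l2. All 8 lost the call without female sham rat 8, while the 6 higher in males (Cat, Sod3, Gss, Mgst3, Gclm and Gsr, the glutathione reductase) kept it. Gsta4 went from -1.67 to -0.62 (adjusted p = 0.155) and Txn1 from -1.81 to 0.08 (adjusted p = 0.837). In rat 8 the adipocyte markers were the highest of female SAT and Adipoq was 4097 CPM. Of the 4 members higher in male SAT of PCB 52 rats and not of sham rats, Gstm2 (2.26), Srxn1 (1.41) and Slc7a11 (4.06) lost the call without male rat 19, with -0.03, 0.32 and 2.87. Sod1, the cytosolic superoxide dismutase, lost it without male rat 17, going from 1.41 to 0.55. The test of the sex difference in the PCB 52 effect in SAT called none of these 4.

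**Figure D5:**
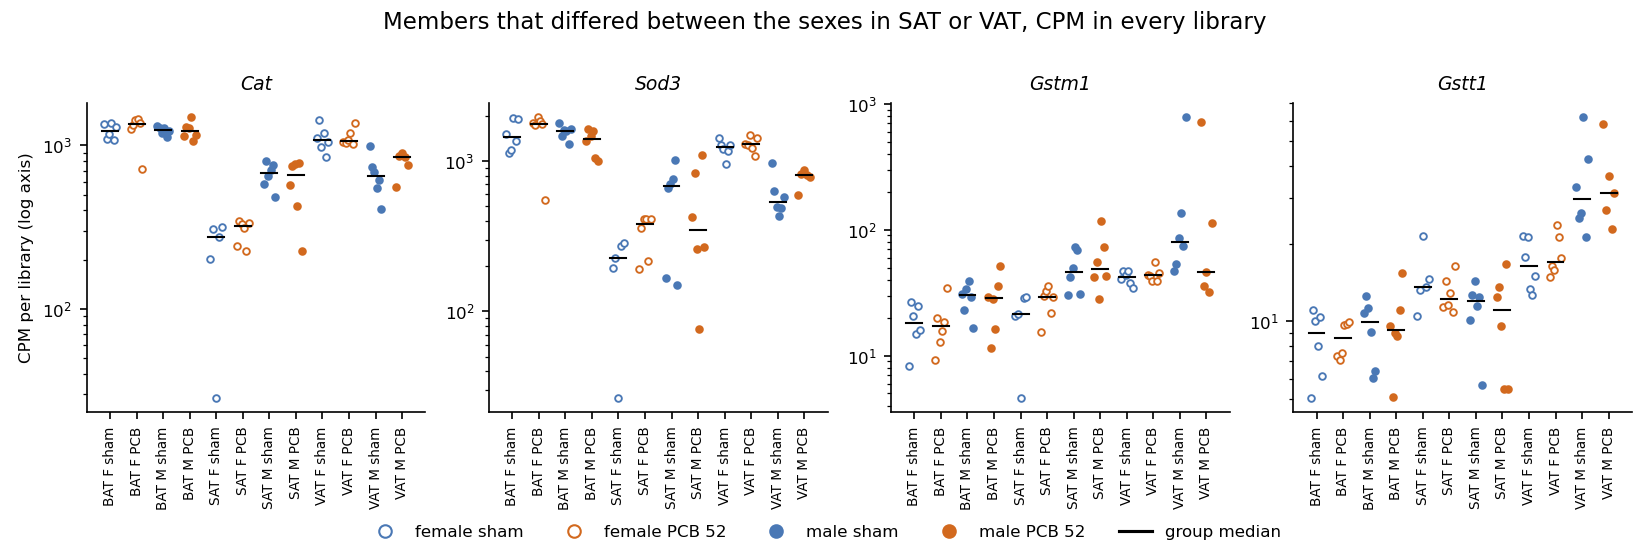
CPM in every library (vertical log axis) of Cat, Sod3, Gstm1 and Gstt1 by depot, sex (F female, M male) and treatment, with a bar at each group's median. Cat is lower in female than in male SAT, Gstt1 is higher in male than in female VAT, and the highest Gstm1 points are the VAT of male rats 11 (sham) and 13 (PCB 52).

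In VAT of sham rats 4 members were higher in males and 2 lower (3.86% and 3.21%), and in VAT of PCB 52 rats 4 and 3 (1.47% and 1.65%). The 7 of PCB 52 rats became 1 without male rat 13, 3 without female rat 20 or 24, 4 without female rat 16 or 18, and 2 without the libraries that stood apart. The 4 higher ones, Gstm1, Gstp1, Gstt1 and Slc7a11, were called in both treatments, as were the lower Pgd and Prdx3. Gstt1 was 12.6 to 21.5 CPM (median 16.4) in VAT of female and 21.3 to 62.1 CPM (median 29.7) in VAT of male sham rats, overlapping only at 21.3 CPM in male rat 9. The log2 fold change was 1.06 (SE 0.253, adjusted p = 0.0084) in sham and 0.95 (SE 0.245, adjusted p = 0.0231) in PCB 52 rats. Gstp1, the pi class transferase, had 1.18 (SE 0.230, adjusted p = 0.00129) and 0.63, with 138 to 336 CPM in male and 77.9 to 105 CPM in female sham rats and no overlap. Without rat 13 the difference in PCB 52 rats was 0.52 (adjusted p = 0.0795). The Gstp1 promoter is among those with the core of the antioxidant response element, as are those of 11% of all genes searched. The part of the core in this sex difference was not tested.

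Gstm1, a mu class transferase, was 34.7 to 46.8 CPM (median 42.1) in VAT of female sham rats. In the male sham rats 1, 3, 5, 7, 9 and 11 it was 46.8, 53.5, 85.7, 136, 74.3 and 790.3 CPM, and in the male PCB 52 rats 13, 15, 17, 19 and 23 715, 35.8, 46, 32 and 113 CPM. Rats 11, 13 and 23 had 3 of the 4 highest values. Svs4, which encodes a secretory protein of the seminal vesicle, was 118, 29.5 and 255 CPM in them and below 0.5 CPM in the other 8. Krt8, an epithelial keratin, was 282, 266 and 54.4 CPM in the 3, and the part of tract and epithelial RNA was not tested. The log2 fold change of 2.25 (adjusted p = 0.00436) in sham rats was 0.91 (adjusted p = 0.105) without rat 11, and the 2.10 in PCB 52 rats was -0.23 without the libraries that stood apart. Slc7a11 showed the same: 48, 25 and 4.28 CPM in rats 11, 13 and 23, and at most 0.887 CPM in the other male VAT libraries. Its log2 fold change of 4.17 in sham rats was -0.45 without rat 11. Gstt1 kept its direction but not its call: without the libraries that stood apart it was 0.94 (adjusted p = 0.0531) in sham rats, and without rat 13 it was 0.70 (adjusted p = 0.182) in PCB 52 rats.

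Pgd and Prdx3 were lower in male VAT. Pgd was 348 to 669.5 CPM (median 463) in female and 235 to 293 CPM (median 263) in male sham rats, with no overlap (log2 fold change -0.86, SE 0.203, adjusted p = 0.00751), and the log2 fold change was -1.23 in PCB 52 rats. Prdx3 had -1.004 (SE 0.210, adjusted p = 0.00251) and -1.07. In the VAT of female sham rats 4 and 8, which held Ucp1, Prdx3 was 279.8 and 179.6 CPM, and in the other 4 it was 132 to 211 CPM, so rat 4 was the highest and rat 8 was within the others. Without the libraries that stood apart, the sham difference of Prdx3 was -0.79 (adjusted p = 0.0245). In PCB 52 rats it was -1.001 (adjusted p = 0.068) without male rat 13. The third member lower in male VAT of PCB 52 rats was Prdx1, a cytosolic peroxiredoxin, with -0.90 (SE 0.249, adjusted p = 0.0379). Its call was lost when any of female rats 20 and 24 or male rats 13, 15, 19 and 23 was left out, with -0.67 (adjusted p = 0.16) without rat 20.

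The difference between the sexes in a depot contrast was tested directly, as male minus female log2 fold change. Between SAT and VAT it was called for 11 of 38 members in sham rats (20.7% of all genes) and 8 in PCB 52 rats (6.34%). With the rat number as a block these were 7 and 5. Pgd, Cat and Prdx3 were called with a positive and Gstt1 with a negative difference in both. For Cat it was 2.28 (SE 0.419, adjusted p = 0.000421) in sham and 1.46 in PCB 52 rats. For Pgd it was 0.95 and 1.82, for Prdx3 1.46 and 1.20, and for Gstt1 -1.46 and -1.26. Without the VAT of male rat 13, Prdx3 and Gstt1 in PCB 52 rats were 1.13 and -1.003, with adjusted p of 0.0699 and 0.0691. The block ended the call of Prdx3 in PCB 52 rats (1.16, adjusted p = 0.0642). Between BAT and SAT only Cat was called in sham rats (log2 fold change -1.55, SE 0.415, adjusted p = 0.0268, 5.75% of all genes), which the block ended (-1.61, adjusted p = 0.0737), and 0 in PCB 52 rats (0.994%). Between BAT and VAT 0 were called in sham (0.45%) and in PCB 52 rats (0.147%). In these 3 contrasts with 0 called, 12 (BAT against SAT, PCB 52 rats), 6 and 7 (BAT against VAT, sham and PCB 52 rats) members had an unadjusted p under 0.05 in edgeR, and DESeq2 called 2, 0 and 1.

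7 of the 38 members were called in none of the 6 depot contrasts of sham rats, as were 2218 of all 12228 genes (18.1%). They are Gclc, the catalytic subunit that starts glutathione synthesis, Abcc1, an exporter of glutathione conjugates, Osgin1, an NRF2 target that limits growth, Txnrd1, which reduces thioredoxin, Prdx1, Gpx1, the common cytosolic glutathione peroxidase, and Gpx3, the secreted one. Median levels of Gclc in sham rats lay between 30.6 CPM (male VAT) and 39.5 CPM (female SAT), those of Txnrd1 between 51.6 CPM (male SAT) and 74 CPM (male BAT), and those of Abcc1 between 29.2 CPM (male BAT) and 49.9 CPM (female VAT). Nqo1, the quinone reductase used as a readout of NRF2, had medians of 9.05 to 17.7 CPM in sham rats, and was lower in BAT (-0.98) and in SAT (-0.83) than in VAT in males. The call between SAT and VAT was lost without any of 4 single libraries (SAT of rats 1 and 11, VAT of rats 3 and 7), and was -0.65 (adjusted p = 0.0942) without the VAT of rat 7. Prdx6, which also reduces phospholipid peroxides, was lower in SAT than in VAT in both sexes of sham rats (-0.55 and -0.71) and of PCB 52 rats (-0.98 and -0.78).

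Other genes of the pathways differed between depots as well, and 0 of each of the 5 lists that follow were called in any of the 6 comparisons of PCB 52 with sham. Among 20 other NRF2 target genes tested in sham rats, 10 were higher and 2 lower in female BAT than in SAT, and 6 and 4 in males. For this and the 4 lists below, the shares of all genes in BAT against SAT were 22.4% higher and 31.1% lower in females and 21.4% and 26.3% in males, and no list was tested against them. Tkt, transketolase, was at 3.12 and 2.998 and Aldh3a1, an aldehyde dehydrogenase, at -2.80 and -2.38 on the log2 scale. Against VAT, 4 were higher and 5 lower in BAT of females (16.8% and 14% of all genes), and 5 and 6 in males (19.3% and 22.3%), with the carbonyl reductases Cbr1 at -4.02 and -3.51 and Cbr3 at -3.42 and -3.32. Of 14 other NRF2 regulators and partners, 2 were higher and 2 lower in female BAT than in SAT and 2 and 6 in males, and the small MAF protein gene Maff was higher in BAT in all 4 contrasts, from 1.16 (females, against VAT) to 2.13 (males, against SAT).

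Of 29 other glutathione enzymes, 10 were higher and 9 lower in BAT than in SAT in female sham rats, and 9 and 8 in males. On the lower side these counts are near the share of all genes in both sexes. Chac1, which breaks down glutathione, was at 2.51 and 3.03 against SAT and 3.37 and 4.19 against VAT. Ggt1, the transferase that starts extracellular glutathione breakdown, was at -6.000 and -6.41 against SAT, and in VAT of male against female sham rats at 3.96. The mammary gland and epithelium markers, 1.27 to 4.36 CPM in BAT and 5149 to 25634 CPM in SAT of female sham rats, differ in the same direction as Ggt1, and their part was not tested. Of 24 other thioredoxin, methionine sulfoxide reductase and selenoprotein genes, 6 were higher and 8 lower in female BAT than in SAT, and 7 and 4 in males. The female counts are near the shares of all genes. The mitochondrial thioredoxin Txn2 was at 2.58 and 2.48. Against VAT, Txn2 was at 1.60 and 1.82 and its reductase Txnrd2 at 1.64 and 1.63. Of 17 genes that produce superoxide or hydrogen peroxide, 4 were higher and 5 lower in female BAT than in SAT and 2 and 10 in males. Here too the female counts are near the shares of all genes. The epithelial oxidase Duox1 was at -4.04 and -2.96.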

How the data were processed

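The labels list 70 RNA-seq libraries of BAT, SAT and VAT, made from about 100 mg of tissue with RNA integrity of at least 8; poly(A) capture or rRNA removal is not specified for each library. The authors deposited raw read counts per NCBI gene number in 6 tables of 15319 genes; per the submitters' processing notes, reads were checked with FastQC and aligned with HISAT2, and rn6 is the build named. The female VAT table is listed as deposited estimated counts because 5 spreadsheet lines under its genes are not whole; the authors' gene lines in it are whole counts, and those lines were left out. How reads were assigned to genes, and whether strand was used, is not stated. Without strand, reads of overlapping antisense genes cannot be told apart, and reads of near-identical transferase genes (Gstm1 and Gstm2, Gstt1 and Gstt2) may be split between copies. 15230 gene numbers matched a RefSeq symbol.

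Groups came from the labels. Counts were scaled by TMM and tested with edgeR 4.0.16 (quasi-likelihood, robust, R 4.3.3) over genes passing filterByExpr, with Benjamini-Hochberg adjustment over all genes tested and a threshold of 0.05; SE is the log2 fold change divided by the square root of F. PCB 52 was compared with sham in 1 fit for each sex and depot and 1 fit for each depot with both sexes; depots and sexes were compared in 1 fit of all sham and 1 of all PCB 52 libraries. The fits for depots treat libraries as independent, although title numbers were read as rats. Deviations of same-numbered libraries from their groups had a median r of 0.063 over 68 pairs (25 above 0.1), against -0.0226 over 340 other pairs (62 above 0.1). Alternatives were DESeq2 1.42.0, RLE size factors, no filter, the replicate number as a block, the set without the 8 libraries named above that earlier results of these data had shown to stand apart, and each library left out. The code was tested on simulated counts. CPM are counts divided by the TMM-adjusted total and multiplied by 1000000, with TMM over all 70 libraries. No transcript lengths were used, so levels are compared within a gene only.

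Members and gene lists were chosen with earlier results of these data known. Any member may be named with its levels; SE and adjusted p go to members among the 8 of largest change in each direction that passed, or the 5 of smallest p where fewer than 3 passed. Not all of these are named, and other values, of members called in several contrasts or sensitive to 1 library, were added after they were seen, as were the 16 members given by library. For other lists, up to 3 genes in each direction are named, and some genes that rule names are not reported here. All 170 pairs of libraries within groups differed beyond sampling noise. The sex-linked genes checked fitted the labelled sex in 69 of 70 libraries, and the exception, the VAT of male PCB 52 rat 13, had no reads on them.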

Additional observations from a re-analysis of the deposited data

Results flagged for a closer look

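Among 192 combinations of 16 members and 12 groups, 40 (20.8%) had a library separated from the rest of its group by more than Dixon's 95% critical value. Chance flags about 1 in 20 groups of normally distributed values. The values here were CPM without a log, so that rate may not hold for them. These 16 were chosen after their values were seen, so their share is a description. With group medians of at least 1 CPM, 87 of 447 combinations (19.5%) of all members and 18168 of 137700 (13.2%) of all genes had such a library. The same libraries recur among the 16 members. The SAT of female sham rat 8 lay far from its group in Prdx5 (802.7 CPM), Gpx4 (1476 CPM), Txn1 (1156 CPM), Mgst1 (1118 CPM) and Pgd (275 CPM). The BAT of female PCB 52 rat 24 lay far from its group in Sod2 (279.9 CPM), Gpx4 (317 CPM), Gss (49.6 CPM), Cat (719 CPM), Sod3 (553 CPM) and Gstm2 (169 CPM). The SAT of male PCB 52 rat 19 did so in Srxn1 (99.3 CPM), Prdx5 (387 CPM), Txn1 (160.0 CPM) and Gstm2 (3506 CPM).

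The VAT of female PCB 52 rat 20 and of male sham rat 7 are not among the 8 libraries left out together. In VAT, female PCB 52 rat 20 lay far from its group in Prdx5 (268 CPM), Gpx4 (714 CPM), Txn1 (206 CPM) and Mgst1 (3138 CPM). Male sham rat 7 lay far from its group in Prdx5 (309.9 CPM), Gpx4 (739 CPM) and Txn1 (237 CPM). Male sham rat 11 did so in Gstm1 (790.3 CPM), Slc7a11 (48 CPM) and Srxn1 (36.4 CPM), and male PCB 52 rat 13 in Gstm1 (715 CPM), Gstm2 (248 CPM), Slc7a11 (25 CPM) and Gss (104 CPM). Female sham rat 4 had 258 CPM of Prdx5 and 129 CPM of Gss, and male sham rat 1 had 969 CPM of Sod3. The remaining libraries carried 1 value each. Hmox1 was 584 CPM in the BAT of female sham rat 12 and 492 CPM in that of male sham rat 11. Gss was 119.5 CPM in the SAT of male PCB 52 rat 17, and Mgst1 was 896 CPM in the BAT of male PCB 52 rat 23. Slc7a11 was 0.882 CPM in the BAT and 1.42 CPM in the VAT of female sham rat 10, 1.22 CPM in the BAT of male PCB 52 rat 21 and 20.1 CPM in the SAT of male sham rat 11.

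Depot contrasts that differed between the sexes by the direct test, as male minus female log2 fold change, number 20. In sham rats the contrast of BAT with SAT differed for Cat (-1.55). The contrast of SAT with VAT in sham rats gave positive differences for Sod3 (2.53), Cat (2.28), Prdx3 (1.46), Pgd (0.95) and Gss (0.85). It gave negative ones for Gsta4 (-2.70), Txn1 (-2.35), Gstp1 (-1.73), Gstt1 (-1.46), Gpx1 (-1.31) and Prdx2 (-1.16). Without the SAT of female sham rat 8, Txn1 (-0.46), Gpx1 (-0.66) and Prdx2 (-0.41) were no longer called, and Gsta4 was -1.66. In PCB 52 rats the same contrast gave Sod1 (2.22), Mgst2 (2.03), Pgd (1.82), Prdx1 (1.47), Cat (1.46), Mgst1 (1.36), Prdx3 (1.20) and, on the negative side, Gstt1 (-1.26). Sod1 was 1.36 without the SAT of male rat 17.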

How the results depend on the processing

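Leaving out the 8 libraries that stood apart changed these counts of members called (main count in brackets): SAT against VAT in male sham rats 17 (9), its sex difference in sham rats 6 (11) and in PCB 52 rats 5 (8), male against female SAT in sham rats 8 (14) and in PCB 52 rats 13 (7), male against female VAT in PCB 52 rats 2 (7), BAT against VAT in female PCB 52 rats 22 (13), and the sex difference in BAT against SAT in PCB 52 rats 2 (0). DESeq2 gave 3 (1) and 2 (0) for the sex difference in BAT against SAT in sham and PCB 52 rats and 1 (0) for that in BAT against VAT in PCB 52 rats. The replicate block, with title numbers read as rats, gave 0 (1) for the sex difference in BAT against SAT in sham rats, and 7 (11) and 5 (8) for that in SAT against VAT in sham and PCB 52 rats. The block ended 22 calls among 184 recomputed member values, some of which had not been called at first. Beside those given with the results, they are Prdx4 in BAT against VAT of male sham rats, Gsta4 and Prdx2 (females) and Sod1 and Gstm1 (males) in SAT against VAT of sham rats, Slc7a11 in BAT against VAT and Gstm2, Prdx4 and Gstm1 in SAT against VAT of male PCB 52 rats, and the sex differences in SAT against VAT of Gss, Txn1, Gpx1 and Prdx2 in sham and Mgst1 and Mgst2 in PCB 52 rats. It changed no other call recomputed. The cause of these changes was not tested.

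Leaving out each library in turn gave, in sham rats, 18 to 23 members for BAT against SAT in females and 15 to 16 in males, 11 to 13 and 19 to 21 for BAT against VAT, 16 to 20 and 6 to 10 for SAT against VAT, 7 to 16 for males against females in SAT and 4 to 7 in VAT, and 1 to 5 and 8 to 12 for the sex difference in BAT against SAT and in SAT against VAT. In PCB 52 rats the ranges were 19 to 23 and 18 to 22, 12 to 17 and 18 to 20, 15 to 19 and 7 to 13, 5 to 10 and 1 to 8, and 0 to 2 and 6 to 10, in the same order. Every comparison of PCB 52 with sham stayed at 0.

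Some log2 fold changes of single members changed sign, and they are given as the value without the libraries that stood apart, if that turned it, and the range when each library in turn is left out. For PCB 52 against sham in female SAT, Prdx5 was 0.048, with a range of -1.856 to 0.048 that turned without sham rat 8. In male SAT, without PCB 52 rat 19, Gstm2 was -0.075 (range -0.075 to 2.427), Gsta4 -0.141 (range -0.141 to 2.002) and Gclc -0.001 (range -0.001 to 1.022). With both sexes in SAT, Gstm2 was -0.041, and Txn1 (range -1.013 to 0.041) and Gpx4 (range -0.629 to 0.016) turned without female sham rat 8. For the sex difference in the SAT effect Gsta4 was -0.099. In female sham rats, without rat 8, Txn1 was 0.717 for BAT against SAT (range -1.407 to 0.760) and -0.051 for SAT against VAT (range -0.108 to 1.998), and Gsta4 ranged from -1.271 to 0.042 for BAT against SAT. For the sex difference in BAT against SAT of sham rats Txn1 was -0.023 (range -0.029 to 2.102). For male against female SAT of sham rats, without rat 8, Txn1 was 0.069 (range -2.056 to 0.080), Prdx5 0.347 (range -1.502 to 0.356), Mgst2 0.067 (range -1.479 to 0.067) and Fth1 0.048 (range -1.199 to 0.050). For male against female VAT of sham rats, without rat 11, Slc7a11 was -0.570 (range -0.450 to 4.963). In male PCB 52 rats Slc7a11 was 1.011 for BAT against VAT. For SAT against VAT in these rats Gstm1 was 0.352 (range -1.956 to 0.084, without VAT of rat 13) and Gstm2 ranged from -0.031 (without SAT of rat 19) to 2.538. For male against female PCB 52 rats, Gstm2 in SAT was -0.023 (range -0.033 to 2.493, without rat 19) and Gstm1 in VAT was -0.225. The cause was not tested.

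Over all recomputed values, RLE size factors kept all 288 on the same side of the threshold, DESeq2 kept 255 of those to which it gave an adjusted p and moved 5 past the threshold, no filter 282 of 288, and the block 162 of 184. Depth gave a floor of 0.294 to 0.714 CPM, under which Slc7a11 lies in most BAT and VAT libraries.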
